A study of Mus musculus with 4 samples.

Results

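Cholesterol and fatty acid synthesis was described in mouse osteoclast cultures with and without an induced deficiency of NFATc1, the transcription factor that drives osteoclast formation downstream of RANK. The genes were 34 named enzymes, regulators and carriers, and their probe sets were those whose single gene symbol in the platform annotation was one of these names. Of the 34 genes, 31 had such a probe set, with 61 probe sets in all, out of 12394 genes on 22690 probe sets. Acat2, Insig1 and Soat1 had none and were not analysed here. The genes fell into a sterol arm (17 with a probe set), a fatty acid arm (9), control of the sterol-sensing transcription factors (4) and sterol transport and storage (1).

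The NFATc1-deficient cultures came from NFATc1 fl/fl MxCre+ mice, in which poly I:C induced the Mx-driven Cre recombinase, and the wild-type cultures came from NFATc1 fl/fl MxCre- mice. Both genotypes were C57BL/6 and carried the floxed alleles. The Mx promoter responds to interferon in many cell types, and the sources used here do not give whether the MxCre- mice also received poly I:C. Precursors sorted from whole bone marrow as CD11b-, CD3e-, B220-, ckit+ and cfms+ cells went into wells at 20000 each. They then spent 3 days with the cytokines M-CSF and RANKL, which together make precursors become osteoclasts. Each genotype had 2 arrays, hybridised with RNA of cells pooled from 3 mice for replicate 1 and 4 mice for replicate 2. The sources used here do not give the ages of the mice.

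Cells build cholesterol from acetyl-CoA through mevalonate, farnesyl diphosphate and squalene, and a side branch of the same route supplies the prenyl groups that anchor small GTPases to membranes. Osteoclasts depend on that branch for their cytoskeleton, and nitrogen-containing bisphosphonates act on them by blocking farnesyl diphosphate synthase. The transcription factors SREBP2 (gene Srebf2) and SREBP1 (gene Srebf1) drive the sterol and fatty acid genes. They are carried from the endoplasmic reticulum by SCAP, and INSIG proteins hold them back when sterols are plentiful. Promoters of SREBP target genes commonly pair a sterol regulatory element with a CCAAT box, the site of the factor NF-Y.

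Values were MAS5 signals on a linear scale, each array scaled to a common trimmed mean, and with no detection calls, so a dim probe set may or may not exceed background. Array medians lay between 112 and 130. Log2 changes are NFATc1-deficient minus wild-type on the log2(signal + 23.3) scale, which understates changes of dim genes. They were tested with limma over 13577 probe sets with a mean signal above 61.95, with Benjamini-Hochberg adjustment and a threshold of 0.05 on the adjusted p. Where a gene had several probe sets, the brightest stood for it. Nfatc1 was lower on both deficient arrays (3018 and 4098, against 5434 and 6147 on the wild-type arrays, log2 change -0.71, adjusted p = 0.0104), and whether its probe sets lie in the deleted part was not analysed here. Xist was high in replicate 1 of both genotypes and the Y-linked Eif2s3y in replicate 2, so sex followed the replicate number in both genotypes.

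Marker genes of several cell types differed between the genotypes. Over all genes tested, 11.9% fell and 12.9% rose. All 7 osteoclast markers (Acp5, Ctsk, Calcr, Itgb3, Oscar, Ocstamp and Mmp9) fell. Their summed signals were 19085 and 26174.8 in deficient cultures, against 43638.4 and 49299.4 in wild-type cultures. The deficient signals of Calcr (17 and 41.6) and Itgb3 (4.6 and 10.2) lay below the filter cut-off of 61.95. Both genes exceeded the filter through the wild-type arrays alone, so their calls add nothing to those of the others. Of 6 macrophage markers, 2 fell and 1 rose, with sums of 18159.3 and 18017.7 in deficient cultures and 22241 and 26212.3 in wild-type cultures. Of 7 granulocyte markers, 3 rose, and their sums were 14611.3 and 7092.7 in deficient cultures and 4828.6 and 5720.3 in wild-type cultures. The median log2 change of the 7 was 1.733 within replicate 1 and 0.145 within replicate 2. Within replicate 2, Camp (-0.373), Ltf (-0.128) and Elane (-0.004) had negative changes. Of 4 lymphoid markers with a probe set, only Il7r was tested, and it rose. Their sums were 310.6 and 378.8 in deficient cultures and 231.4 and 161.2 in wild-type cultures. Il7r itself had 242.4 and 275.5 in deficient cultures, against 132.1 and 80.5 in wild-type cultures. The dim Cd3e went the other way, with 10.1 and 18.8 in deficient cultures, against 28 and 41 in wild-type cultures. Cd79a and the brighter Ms4a1 probe set were dim and overlapped. The summed signals of stromal, erythroid and adipocyte markers were at most 340.6, 198.7 and 140.5 on any array, with no call among the few tested, and no marker list had a gene at 0. In these bulk samples fewer cells of a type and less RNA per cell cannot be told apart, and the part of these shifts in the results below was not tested.

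The promoters of the sterol genes that fell and of the fatty acid synthase gene that rose are shown because CCAAT boxes were counted in them and in the promoters of both arms. Each run is the 250 bases before the annotated start in RefSeq, assembly GRCm38.p6, written 5′ to 3′ on the gene's strand. Capitals mark CCAAT on either strand (ATTGG on the other) and CACNCCAC, a core of the sterol regulatory element, on either strand.
Hmgcs1, chr13:119690101-119690350, plus strand: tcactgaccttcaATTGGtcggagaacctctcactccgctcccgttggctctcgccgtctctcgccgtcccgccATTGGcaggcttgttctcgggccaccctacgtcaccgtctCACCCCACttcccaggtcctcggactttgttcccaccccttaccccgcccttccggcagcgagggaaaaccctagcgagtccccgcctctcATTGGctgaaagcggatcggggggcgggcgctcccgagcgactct
Pmvk, chr3:89454291-89454540, plus strand: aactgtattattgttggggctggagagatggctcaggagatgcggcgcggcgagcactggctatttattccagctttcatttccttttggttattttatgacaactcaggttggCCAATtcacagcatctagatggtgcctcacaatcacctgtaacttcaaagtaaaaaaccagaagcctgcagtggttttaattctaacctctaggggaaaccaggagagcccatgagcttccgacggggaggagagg
Nsdhl, chrX:72918271-72918520, plus strand: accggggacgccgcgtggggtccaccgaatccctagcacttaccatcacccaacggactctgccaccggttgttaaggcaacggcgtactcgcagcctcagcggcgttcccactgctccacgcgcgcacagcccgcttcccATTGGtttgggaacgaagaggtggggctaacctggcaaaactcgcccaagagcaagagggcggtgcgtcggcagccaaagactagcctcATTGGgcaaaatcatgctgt
Fasn, chr11:120824548-120824797, minus strand: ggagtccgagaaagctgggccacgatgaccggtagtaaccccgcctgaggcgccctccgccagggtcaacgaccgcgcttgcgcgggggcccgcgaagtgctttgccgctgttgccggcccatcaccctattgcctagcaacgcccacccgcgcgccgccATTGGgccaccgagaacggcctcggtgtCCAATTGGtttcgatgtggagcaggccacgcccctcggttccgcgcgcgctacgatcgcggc
Hmgcs1 held 3 CCAAT boxes and 1 sterol element core, Pmvk held 1 CCAAT box and Nsdhl held 2. Fasn held 3 CCAAT boxes, of which the pair inside CCAATTGG overlaps, with 1 on each strand.

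With 1 window per gene, the one farthest 5′, CCAAT was present in 13 of 14 sterol-arm genes matched to the table, in 3 of 4 control genes and in 2 of 6 fatty-acid-arm genes (Fasn and Elovl5). Over all 27025 genes with a window the share was 34.5%. The sterol gene with a window but no CCAAT was Dhcr7. Scd2, Fads1 and Scd1 of the fatty acid arm had no matched window, nor had Sqle, Fdps and Fdft1 of the sterol arm, or Stard4. The counts therefore leave out Scd2 and Fads1, which passed the threshold. CACNCCAC was present in Hmgcs1 and in no other of the 24 matched genes, against 5.15% of all windows. CCAAT boxes stood before sterol genes of either direction of change, among them Mvk (5 boxes) and Msmo1 (3 boxes), whose log2 changes were 0.20 and -0.02. A match is a description of these letters and not of binding.

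Over both arms, the control genes and Stard4, 5 of the 30 tested genes fell, 2 rose and 23 did not pass, where 24.8% of all 7798 genes tested passed in either direction. By probe set, 10 of 51 fell and 3 rose (1 rose without NFATc1-deficient replicate 1), beside 11.4% and 12.8% of all probe sets (24.2% in either direction). These counts include 1 Mvk probe set that rose and 1 Scd2 probe set that fell, each of which exceeded the filter only through the genotype where it was high. The signals of 13 genes lay lower and of 4 genes higher on both deficient arrays, and those of 13 overlapped, where 64% of all genes did not overlap.

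In the sterol arm 3 genes fell. Of its 17 tested genes, 7 were lower and 0 higher at an unadjusted p under 0.05, beside 1396 and 1538 of all 7798 genes. By limma with the adjusted p, Pmvk, Nsdhl and Hmgcs1 fell, 14 did not pass and 0 rose. Without wild-type replicate 1 the number that fell was 5. Over all 7798 genes tested, 11.9% fell and 12.9% rose, so the share of sterol genes that fell (17.6%) was near the background. The log2 change was negative in 14 of the 17 genes, against 46.7% of all genes, and the median was -0.25, against 0.03 over all genes.

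Hmgcs1 makes HMG-CoA, from which mevalonate is formed. Its brightest probe set had signals of 1538 and 1541 in deficient cultures, against 2035 and 2585 in wild-type cultures (log2 change -0.57, SE 0.13, adjusted p = 0.0148). The dimmest Hmgcs1 probe set had 401 and 411 in deficient cultures, against 713 and 844 in wild-type cultures. The remaining ones spanned 1108 to 1424 in deficient cultures and 1513 to 2332 in wild-type cultures. Both deficient signals lay below both wild-type signals at each of the 4 probe sets, and each fell, with log2 changes of -0.57 to -0.90. The probe sets share the RNA and are not replicates. At the brightest probe set the adjusted p was 0.0716 without the intensity trend and 0.0603 without wild-type replicate 2.

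The kinases that follow gave different results. Pmvk, the phosphomevalonate kinase, had 204 and 200 in deficient cultures and 364 and 429 in wild-type cultures. It was lower in the deficient cultures (log2 change -0.90 with SE 0.17 and adjusted p = 0.00645), the widest change of the arm at the brightest probe sets, and the signals did not overlap. Mvk, the mevalonate kinase, had 81.4 and 95.6 in deficient cultures and 68.2 and 79.9 in wild-type cultures at its brighter probe set, a log2 change of 0.20 that did not pass (adjusted p = 0.635). Its dimmer probe set had 98.3 and 97.6 in deficient cultures, against 37.3 and 43.5 in wild-type cultures, and rose (log2 change 0.93, adjusted p = 0.0409). This probe set exceeded the filter through the deficient arrays alone.

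The middle of the route, up to lanosterol, held no gene that passed. Mvd, the mevalonate diphosphate decarboxylase, had a log2 change of 0.05, and Fdps, the farnesyl diphosphate synthase, one of -0.15, with signals of 1271 and 1039 in deficient cultures and 1330 and 1229 in wild-type cultures. The deficient and wild-type signals of Fdps overlapped. Idi1, the isopentenyl diphosphate isomerase, had 923 and 701 in deficient cultures and 773 and 854 in wild-type cultures (log2 change -0.01). The dimmer Idi1 probe set had 660 and 538 in deficient cultures and 543 and 485 in wild-type cultures (0.21). Fdft1, the squalene synthase, had 327 and 276 in deficient cultures and 304 and 296 in wild-type cultures (0.00), and the genotypes overlapped. A dimmer Fdft1 probe set had 233 and 209 in deficient cultures, against 254 and 253 in wild-type cultures, without overlap, and did not pass (-0.18, adjusted p = 0.501). Sqle, the squalene epoxidase, had 572 and 697 in deficient cultures, against 804 and 843 in wild-type cultures (-0.37, adjusted p = 0.0836), without overlap. It passed without NFATc1-deficient replicate 2 (adjusted p = 0.0436). Lss, the lanosterol synthase, had a log2 change of -0.25 with 243 in deficient replicate 1 and 352 in wild-type replicate 1, and its deficient replicate 2 and wild-type replicate 2 signals were both 221.

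At their brightest probe sets the genes of the steps from lanosterol to cholesterol had negative log2 changes, beside 46.7% of all genes tested. Nsdhl alone passed. The log2 changes of Msmo1 (-0.158 to 0.111) and Hsd17b7 (-0.207 to 0.097) took either sign under the alternative settings. Nsdhl, a dehydrogenase that helps remove methyl groups from the sterol ring, had 775 and 754 in deficient cultures, against 1219 and 1228 in wild-type cultures (log2 change -0.66, SE 0.11, adjusted p = 0.00401). The gap between the genotypes was far wider than the spread within either. Nsdhl lies on the X chromosome, and its log2 change was -0.64 within replicate 1 and -0.69 within replicate 2, where the pools matched in sex. Tm7sf2, a sterol reductase, had 110 and 111 in deficient cultures, against 153 and 209 in wild-type cultures (-0.59, adjusted p = 0.0952). It passed without wild-type replicate 1 (adjusted p = 0.0428). Dhcr7, the reductase of the last step, had 106 and 102 in deficient cultures, against 161 and 146 in wild-type cultures (-0.47, adjusted p = 0.157). The desaturase Sc5d had -0.46 (adjusted p = 0.113, and 0.0229 without wild-type replicate 1) and the isomerase Ebp had -0.30 (adjusted p = 0.0922). In each of these genes both deficient signals lay below both wild-type signals. Cyp51, the lanosterol demethylase, had -0.19 and Msmo1, a sterol methyl oxidase, had -0.02, and the signals of both overlapped between genotypes. Hsd17b7, a sterol keto reductase, had 166 and 196 in deficient cultures and 182 and 208 in wild-type cultures (-0.10). Its dimmer probe set had 86.2 and 107 in deficient cultures and 75.6 and 72.6 in wild-type cultures (0.30), and neither passed.

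Both deficient signals lay below both wild-type signals in 8 sterol genes (Hmgcs1, Pmvk, Sqle, Nsdhl, Ebp, Sc5d, Dhcr7 and Tm7sf2), above them in 1 (Mvk), and overlapped in 8. Over all genes tested, 29.7% lay below and 34.3% above.

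**Figure D1:**
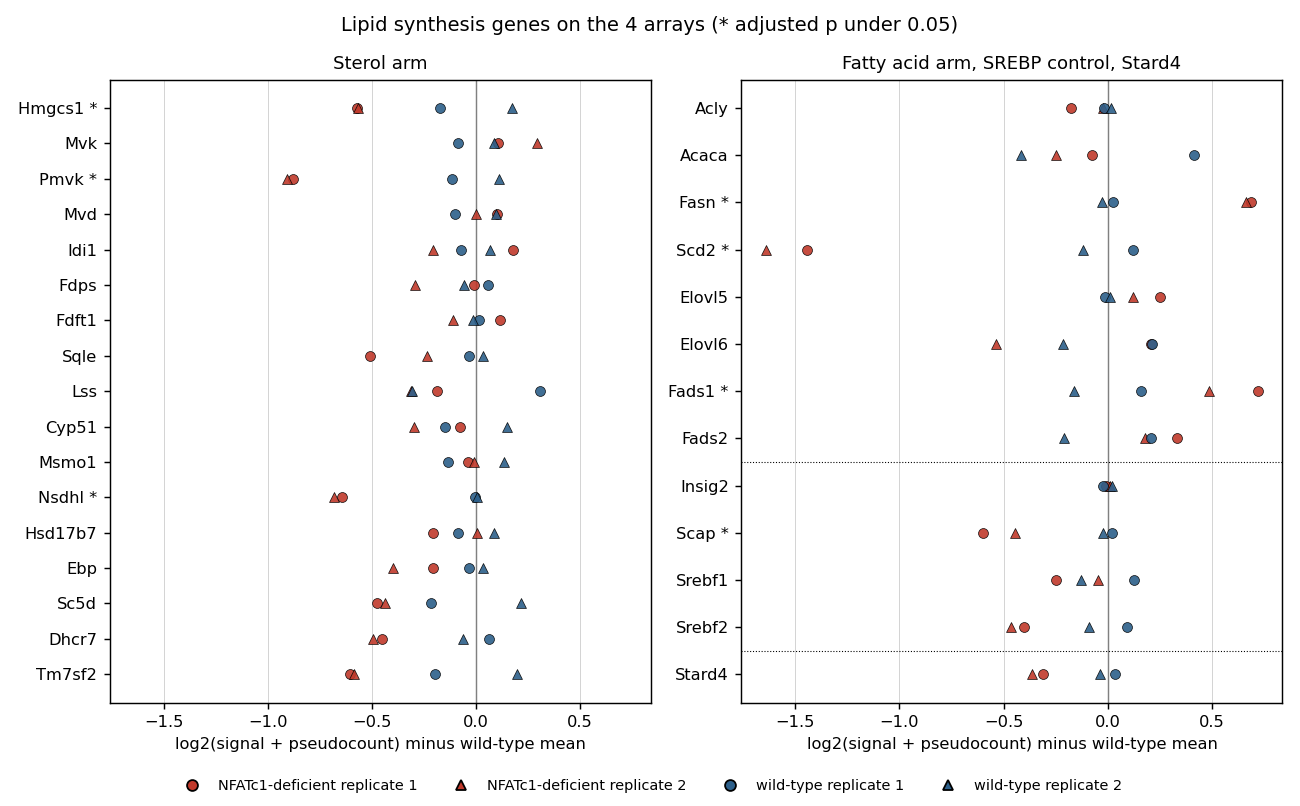
Each point is the log2(signal + 23.3) value of 1 array minus the mean of the 2 wild-type arrays, for the brightest tested probe set of each gene. Red marks NFATc1-deficient and blue wild-type arrays, circles replicate 1 and triangles replicate 2, and a star marks an adjusted p under 0.05. In the sterol arm the red points of 8 genes lie left of both blue points, and in the fatty acid arm Scd2 lies far left while Fasn and Fads1 lie right.

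Among the genes that control the pathway, Scap fell. Its signals were 349 and 391 in deficient cultures, against 548 and 532 in wild-type cultures (log2 change -0.52, SE 0.14, adjusted p = 0.0292). The call ended without the filter (adjusted p = 0.0518), without the intensity trend (0.0570), and without NFATc1-deficient replicate 1 (0.142), wild-type replicate 1 (0.0720) or wild-type replicate 2 (0.0588). Srebf2 had 417 and 398 in deficient cultures, against 596 and 522 in wild-type cultures at its brighter probe set (-0.43, adjusted p = 0.0566), without overlap, and -0.29 at the other. This probe set of Srebf2 passed at 0.0438 with quantile normalization, 0.0475 with the stricter filter and 0.0459 with the replicate block. Srebf1 had 450 and 521 in deficient cultures and 592 and 491 in wild-type cultures (-0.15, adjusted p = 0.535), and the groups overlapped. Insig2 had 659 and 668 in deficient cultures and 653 and 674 in wild-type cultures at its brightest probe set (0.00). Another Insig2 probe set had 375 and 362 in deficient cultures, against 258 and 290 in wild-type cultures, and did not pass (0.40, adjusted p = 0.102), and the remaining one had -0.11. The 3 Insig2 probe sets thus gave 3 different pictures of this gene. Stard4, a carrier of cholesterol between membranes, had 379 and 364 in deficient cultures, against 488 and 463 in wild-type cultures (-0.34, adjusted p = 0.122). Its other probe set had -0.21.

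Calls in the fatty acid arm were few and went in both directions. Of its 8 tested genes 1 fell (Scd2) and 2 rose (Fasn and Fads1), beside 11.9% and 12.9% of all genes, and 5 did not pass. The share that fell (12.5%) was near the background, and the share that rose (25%) rests on 2 genes. The number that rose was 1 without NFATc1-deficient replicate 1 and 1 without wild-type replicate 2. The median log2 change was 0.04, with 4 genes negative and 4 positive.

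Scd2, a stearoyl-CoA desaturase that introduces the double bond of monounsaturated fatty acids, had the widest change of all 30 tested genes. Its brightest probe set had 783 and 680 in deficient cultures, against 2361 and 1996 in wild-type cultures, 2.98-fold lower in mean signal (log2 change -1.54, SE 0.13, adjusted p = 0.000236). A dimmer Scd2 probe set had 230 and 251 in deficient cultures, against 815 and 678 in wild-type cultures, and the dimmest had 51.2 and 65.7 in deficient cultures, against 194 and 215 in wild-type cultures. The log2 changes were -1.54, -1.54 and -1.48, and none of the groups overlapped. The mean of the dimmest over the deficient arrays (58.45) lay below the filter cut-off, so its call adds nothing to those of the others. Within replicate 1 the log2 change of Scd2 was -1.56, and within replicate 2 it was -1.52. The neighbouring paralog Scd1, also on chromosome 19, had 42.3 and 46.1 in deficient cultures and 73.2 and 45.0 in wild-type cultures at its brighter probe set. Neither Scd1 probe set exceeded the filter, so Scd1 was not tested, and whether the Scd2 probe sets also bind its RNA was not tested.

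Fasn, which builds palmitate from acetyl-CoA and malonyl-CoA, rose. It had 618 and 606 in deficient cultures, against 382 and 367 in wild-type cultures, 1.64-fold higher in mean signal (log2 change 0.68, SE 0.13, adjusted p = 0.00803). The log2 change of Fasn was 0.66 within replicate 1 and 0.69 within replicate 2. Fads1, a desaturase of polyunsaturated fatty acids, had 498 and 420 in deficient cultures, against 330 and 260 in wild-type cultures (log2 change 0.60, SE 0.17, adjusted p = 0.0363). Its call ended without the filter (adjusted p = 0.0788), without the intensity trend (0.0727), and without NFATc1-deficient replicate 1 (0.200) or wild-type replicate 2 (0.133). Fads2, the partner desaturase, had 158 and 140 in deficient cultures and 143 and 101 in wild-type cultures (0.26, adjusted p = 0.481), and the groups overlapped.

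The enzymes that supply Fasn did not pass. Acly, which makes acetyl-CoA from citrate, had 1864 and 2077 in deficient cultures and 2081 and 2136 in wild-type cultures (-0.10, adjusted p = 0.557), and -0.35 at a dimmer probe set (adjusted p = 0.0828). Acaca, the acetyl-CoA carboxylase, was dim, with 66.4 and 56.2 in deficient cultures and 103 and 47.5 in wild-type cultures (-0.16). Its wild-type signals spanned both deficient ones. The elongase Elovl5 had 1126 and 1025 in deficient cultures, against 932 and 950 in wild-type cultures (0.19, adjusted p = 0.283). The dimmer Elovl5 probe set had 965 and 929 in deficient cultures and 980 and 888 in wild-type cultures (0.02), and the groups overlapped. The elongase Elovl6 had 201 and 110 in deficient cultures and 202 and 144 in wild-type cultures (-0.17). Its dimmer probe set had 134 and 115 in deficient cultures and 4.8 and 93.8 in wild-type cultures (1.36, adjusted p = 0.120), where wild-type replicate 1 stood apart. The mean of this Elovl6 probe set over the wild-type arrays (49.3) lay below the filter cut-off, so it exceeded the filter through the deficient arrays.

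**Figure D2:**
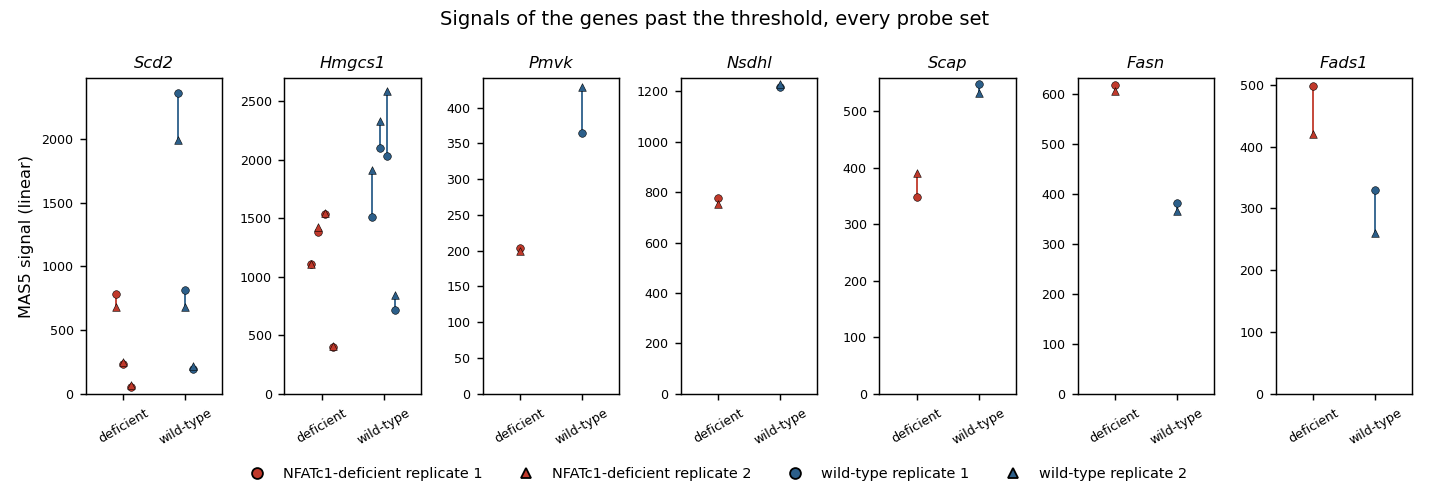
MAS5 signals on linear axes that start at 0 are plotted for the 7 genes past the threshold, NFATc1-deficient left and wild-type right. Lines join the 2 arrays of a genotype at 1 probe set, with circles for replicate 1 and triangles for replicate 2. Scd2, Hmgcs1, Pmvk, Nsdhl and Scap are lower and Fasn and Fads1 higher in deficient cultures, without overlap at any probe set. Of all genes tested, 64% did not overlap.

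Set beside each other, the arms had medians of 0.04 for fatty acid genes and -0.25 for sterol genes, a difference of 0.29 on the log2 scale. This difference was 0.23 within replicate 1 and 0.41 within replicate 2, and 0.43 without Scd2. It was 0.15 without the filter and 0.55 without wild-type replicate 1. The median of the fatty acid arm turned to -0.099 without the filter and to -0.016 without wild-type replicate 2. Placed on each array as the median distance of its genes from their wild-type means, the fatty acid arm lay at 0.23 and 0.05 in deficient cultures, against 0.14 and -0.14 in wild-type cultures. The sterol arm lay at -0.21 and -0.30 in deficient cultures, against -0.09 and 0.09 in wild-type cultures. Both deficient positions of the sterol arm lay below both wild-type positions, and the positions of the fatty acid arm overlapped. All genes tested lay at 0.003 and 0.053 in deficient cultures, against 0.02 and -0.02 in wild-type cultures. Wild-type positions mirror each other because distances were taken from the wild-type mean. The positions therefore restate the medians and add no separate measure of spread. The genes were chosen with earlier results of these data known, so no test is given for a score over them.

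**Figure D3:**
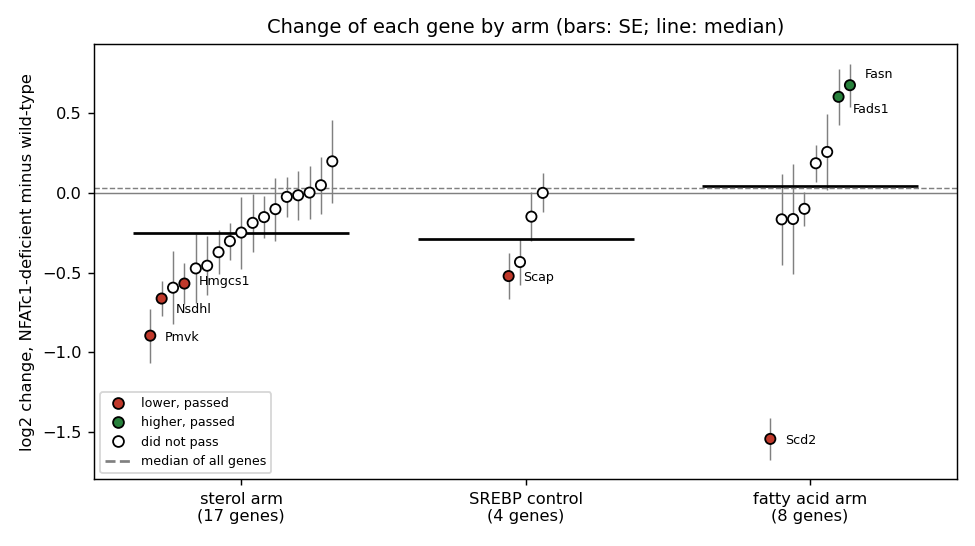
The log2 change of each tested gene, NFATc1-deficient minus wild-type, is plotted by group with its SE. Horizontal lines mark medians of -0.25 (sterol arm), -0.29 (SREBP control) and 0.04 (fatty acid arm), and the dashed line the median of all genes tested (0.03). Filled points passed the threshold, and Scd2 lies far below the rest of its arm.

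Other genes of these pathways were read from a further list. Of 49 listed genes, 33 had a probe set and 30 were tested, of which 6 fell and 0 rose by limma, with 8 lower and 2 higher at an unadjusted p under 0.05. Without NFATc1-deficient replicate 1 the number that fell was 1. Over all 7798 genes tested, 11.9% fell and 12.9% rose. At an unadjusted p under 0.05, 1396 of these were lower and 1538 higher. The median log2 change of the 30 genes was -0.14.

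In fatty acid supply and esterification 4 of 16 genes fell, beside 11.9% of all genes. Mid1ip1, which promotes the assembly of acetyl-CoA carboxylase into filaments, had 2049 and 2581 in deficient cultures, against 4401 and 4881 in wild-type cultures (0.499 of the wild-type mean signal, SE of the log2 change 0.13, adjusted p = 0.00134). Me1, the malic enzyme that supplies NADPH for synthesis, had 138 and 142 in deficient cultures, against 241 and 292 in wild-type cultures (-0.82, adjusted p = 0.0166). Dgat1, which completes triglycerides, had -0.60 (adjusted p = 0.0495) and Elovl1, an elongase of very long chains, -0.48 (adjusted p = 0.0136, with -0.54 and -0.75 at its other probe sets, which also fell). The signals of these 4 genes, which were picked by their calls, did not overlap between genotypes. Of all 16 genes, 8 lay lower and 2 higher on both deficient arrays, and 6 overlapped. Over all genes tested, 29.7% lay lower and 34.3% higher. Acsl4, which activates fatty acids and is named after its values were seen, had 0.10 at its brightest probe set, while another fell (-0.75, adjusted p = 0.0173). Me1 lost its call without NFATc1-deficient replicate 1 (adjusted p = 0.0689), wild-type replicate 2 (0.0648) or the filter (0.0527), Dgat1 without NFATc1-deficient replicate 1 (0.255), wild-type replicate 2 (0.162), the filter (0.108) or the intensity trend (0.0694). Elovl1 lost it without NFATc1-deficient replicate 1 (0.0633) or replicate 2 (0.0824), without the intensity trend (0.0717) and with median scaling (0.138).

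In sterol handling 2 of 5 genes fell, beside 11.9% of all genes. Npc2, the lysosomal cholesterol carrier, had 7163 and 8110 in deficient cultures, against 10521 and 11562 in wild-type cultures (-0.53, adjusted p = 0.0112, with -0.47 at its other probe set, which also fell). Cyb5r3, a reductase that feeds electrons to the desaturases, had 1775 and 2255 in deficient cultures, against 2715 and 3000 in wild-type cultures (-0.51, adjusted p = 0.0255), with -0.35 and -0.56 at dimmer probe sets, where the second also fell. Both lost the call without NFATc1-deficient replicate 1 (adjusted p = 0.198 for Npc2 and 0.180 for Cyb5r3), with median scaling (0.172 and 0.0813) and without the intensity trend (0.0616 and 0.0987). Npc2 also lost it without NFATc1-deficient replicate 2 (0.0515) and Cyb5r3 without the filter (0.0662).

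In the prenyl branch 0 of 9 genes passed by limma, beside 24.8% of all genes in either direction. At an unadjusted p under 0.05, 1 was lower and 1 higher, beside 1396 and 1538 of all 7798 genes. A pair of genes of this branch is named after their values were seen. Rce1, the protease that trims prenylated proteins, had 387 and 351 in deficient cultures, against 290 and 164 in wild-type cultures (0.70, adjusted p = 0.0692), and passed with median scaling (0.00462), with the replicate block (0.0193) and without wild-type replicate 1 (0.00103). Nus1, a subunit of the enzyme that starts dolichol synthesis, had -0.32 at its brightest probe set (adjusted p = 0.0533), while another fell (-0.76, adjusted p = 0.00212). The brightest Nus1 probe set passed with quantile normalization (0.0342), the stricter filter (0.0401), the replicate block (0.0335) and without wild-type replicate 1 (0.0493).

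**Figure D4:**
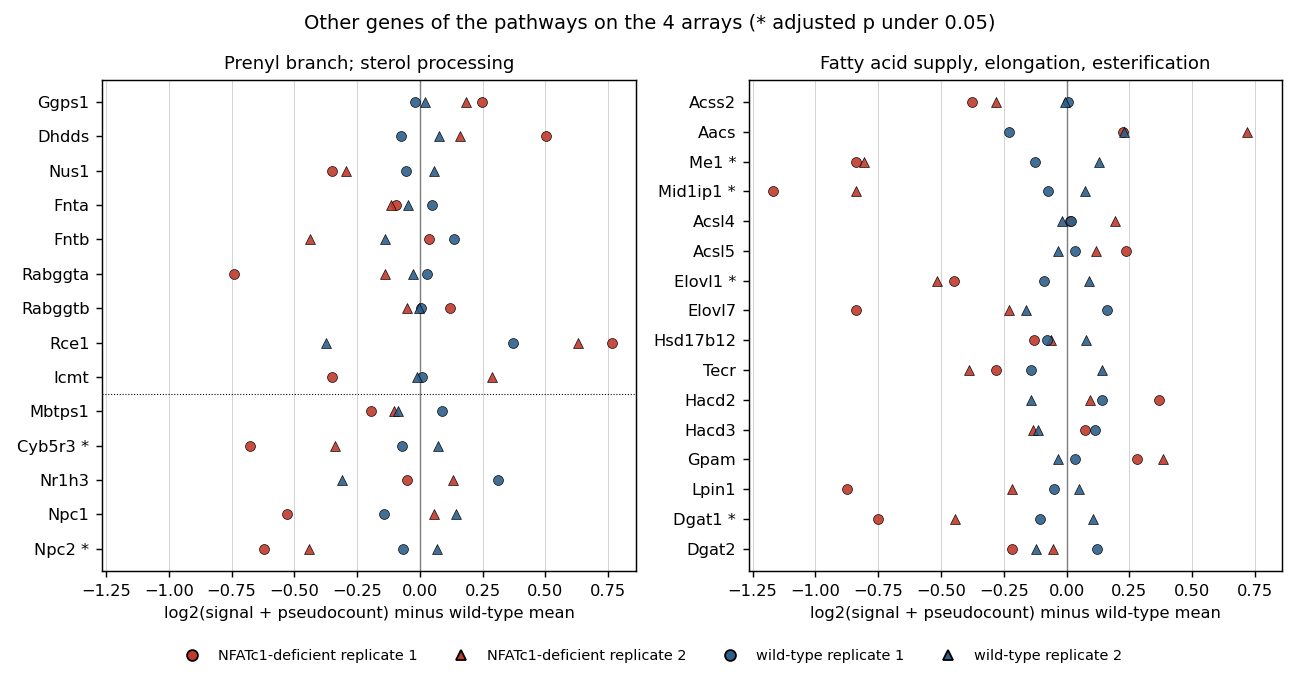
Points give the log2(signal + 23.3) value of each array minus the wild-type mean for the 30 other tested pathway genes, in red for NFATc1-deficient and blue for wild-type arrays, with circles for replicate 1 and triangles for replicate 2. The 6 starred genes passed, and all lie left of both wild-type points, with Mid1ip1 farthest. Of the 30 genes, 14 lie left of both wild-type points, beside 29.7% of all genes tested.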

How the data were processed

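The authors deposited MAS5 signal intensities per probe set on a linear scale, 1 column per array, per the submitters' processing notes. The sources used here name no MAS5 version. The 2% trimmed mean read from the values lay between 500.2 and 500.9 on every array. Of 22690 probe sets, 20393 had 1 symbol, 691 several and 1606 none, and no gene was named from either of the last 2 groups. From these values log2(signal + 23.3) was computed, with the 25th percentile of the values (23.3) as pseudocount. The 64 control probe sets were dropped. Those with a mean signal above the 40th percentile (61.95) went into limma 3.58.1 under R 4.3.3 (lmFit, eBayes with an intensity trend), two-sided, with p-values adjusted over the whole table, which left 51 of the 61 probe sets and 30 of the 31 genes. The scripts were tested on simulated data. The number of arrays limits the precision. The p-values rest on the spread between pools of a genotype, combined with that of probe sets of similar intensity. The pools of a genotype also differed in sex and in number of mice, which the main fit did not separate. Members and lists were chosen with earlier results of these data known. All members were described: those past the threshold, the 3 widest changes of each arm and genes whose probe sets disagreed by array, the others by range. Alternatives covered scaling, pseudocount, filter, trend, replicate block, arrays left out and the probe set rule. Promoters came from RefSeq, assembly GRCm38.p6, with 24 genes matched, and were searched in Python 3.11.15.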

Additional observations from a re-analysis of the deposited data

How the results depend on the processing

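The log2 changes of Scd2, Fasn, Pmvk, Nsdhl and Mid1ip1 kept their direction and passed under all 13 alternatives, with ranges of -1.66 to -1.42, 0.59 to 0.71, -1.01 to -0.72, -0.69 to -0.61 and -1.17 to -0.84. The calls that ended are given beside each gene, and their cause was not tested. Sterol genes that fell numbered 2 to 5 with single arrays left out. Fatty acid genes that rose numbered 1 without the filter, 1 without the intensity trend and 1 to 2 with single arrays left out. Probe sets of the described genes that rose numbered 3, against 1 without the filter and 1 to 2 with single arrays left out. Other pathway genes that fell numbered 6, against 3 with median scaling, 3 without the filter, 2 without the intensity trend and 1 to 8 with single arrays left out, where 1 was the count without NFATc1-deficient replicate 1. Those that rose numbered 0, against 1 with median scaling, 1 with the replicate block and 0 to 1 with single arrays left out. Over all probe sets 1552 fell and 1740 rose, against 940 to 1546 and 854 to 1945 with single arrays left out, the lowest without NFATc1-deficient replicate 1. The number that rose was 1157 without the filter and 990 without the intensity trend. The median of the fatty acid arm (0.04) was -0.10 without the filter, where Scd1 enters, 0.19 with the stricter filter, where dim genes leave, 0.16 with the mean of all probe sets, 0.19 without Scd2 (an alternative chosen after seeing the data) and -0.016 to 0.23 with single arrays left out, turning negative without wild-type replicate 2. That of the sterol arm (-0.25) was -0.34 to -0.21 with single arrays left out. Their difference (0.29) was 0.15 without the filter, 0.43 with the stricter filter or without Scd2, and 0.22 to 0.55 with single arrays left out. The labels share replicate numbers between genotypes without stating a pairing. Replicate differences correlated at 0.130 between the genotypes across probe sets, so the replicate block is an alternative, and with it 1799 probe sets fell and 2048 rose. The median of all probe sets shifted by 0.04. With an array left out, the lone array is assumed to vary like the others.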
